A study of Homo sapiens with 2 samples.

Results

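Secreted Wnt antagonists of the Dkk and sFRP families were read by 6 antibodies whose names begin with Dkk or sFRP. These were Dkk-1, Dkk-3, Dkk-4, sFRP-1, sFRP-3 and sFRP-4. They are part of the 507 antibodies of a human antibody array, and the rule that picks them reads the name and no value. All 6 matched a human gene symbol or synonym (DKK1, DKK3, DKK4, SFRP1, FRZB for sFRP-3, and SFRP4). By the labels, Su.86.86 cells, an established human pancreatic cancer cell line, were grown in DMEM with 10% fetal bovine serum and penicillin and streptomycin. They were transfected with a control siRNA (siNC) or with an siRNA against JAG1 (siJAG1), the gene of the Notch ligand Jagged 1. After 48 h the medium was harvested, and 100 µL of it was left on each array for 2 h before staining with Cy3-conjugated streptavidin. Each group had 1 array, so there is no test between groups, no p-value and no standard deviation. The number of arrays limits the precision of every value.

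Wnt ligands signal through Frizzled receptors together with the co-receptors LRP5 and LRP6, and the best known outcome is the stabilisation of beta-catenin. Dickkopf (Dkk) proteins act on the receptor side: Dkk-1 and Dkk-4 bind LRP5 and LRP6, and Kremen proteins can help to remove the complex from the cell surface. Dkk-3 is a divergent family member that is often lost in tumours. Secreted Frizzled-related proteins (sFRPs) act on the ligand side, because they carry a cysteine-rich domain like that of Frizzled and can bind Wnt ligands outside the cell. DKK1 is itself a target gene of Wnt signalling, and its protein is often raised in the serum of patients with pancreatic cancer. SFRP genes are often silenced by promoter methylation in epithelial tumours.

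The labels of both arrays are open to doubt. A sheet of single spots came with the samples, and its 4 value columns are headed Panc1_NC, BX3_NC, Panc1_mir-124 and BX3mir-124, none of which matches a sample title. For 507 of 507 antibodies the signal on the siNC sheet was the mean of the pair of spots headed Panc1_NC. For 507 of 507 the signal on the siJAG1 sheet was the mean of the pair headed BX3_NC. Panc1 is the name of another pancreatic cancer cell line, and BX3 is not explained in the labels. For this reason the text speaks of the siNC-labelled array, of the siJAG1-labelled array, and of columns by their headings.

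The values below are the deposited relative expression, a ratio on which the positive controls stand at 1. It is the signal minus a baseline, divided by the positive control mean minus that baseline. The baseline equalled the lowest single antibody spot of the matching column, 33619 under the siNC label and 33644 under the siJAG1 label. The same calculation was applied here to the single spots and to the other 2 columns. A relative expression of 0.2 served as the lower limit for a reading, and a call of higher or lower needed 0.2 on either array and a difference of 1.5-fold or more after any reading under 0.2 had been raised to 0.2. Both spots of an antibody lie on 1 slide, so their spread covers printing and reading only, not the culture. No test was made of whether signal follows the amount of protein, so folds compare readings of 1 antibody, and no amounts of different proteins are compared.

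Of the 6 antagonists, Dkk-1 and sFRP-4 gave readings above 0.2, on both labelled arrays, and the other 4 did not on either. Over all antibodies, 6.51% reached 0.2 under the siNC label and 4.54% under the siJAG1 label. Dkk-1 was called lower on the siJAG1-labelled array, and sFRP-4 was not called. In all, 1 of the 6 was called lower and 0 higher, where 2.96% of the 507 antibodies were called lower and 1.38% higher. With no replicate array, these counts describe 2 slides, and in medium fewer cells and less protein released per cell cannot be told apart.

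**Figure D1:**
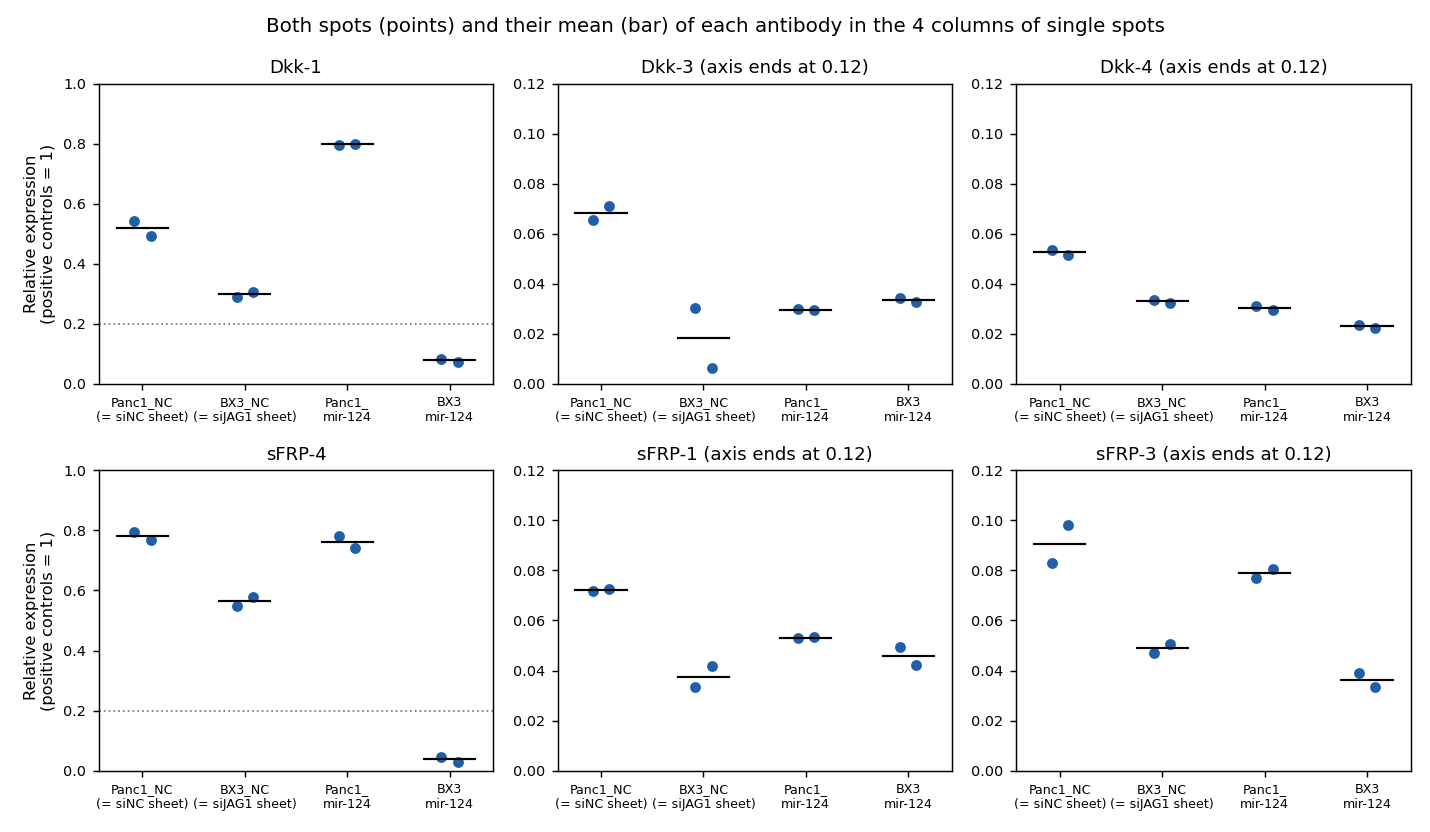
Relative expression (vertical axis, positive controls at 1) of both spots (points) and their mean (bar) for each antibody, by the heading of the single-spot column (horizontal axis). The panels of Dkk-1 and sFRP-4 run from 0 to 1 with a dotted line at 0.2; those of the 4 dim antibodies end at 0.12. Dkk-1 read highest in Panc1_mir-124 at 0.797, and sFRP-4 read 0.0373 in BX3mir-124 against 0.564 to 0.782 in the other 3 columns.

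Dkk-1, the inhibitor that binds LRP5 and LRP6, had spots of 46505 and 45331 signal units on the siNC-labelled array. Its spots under the siJAG1 label were 40915 and 41286. The pairs thus did not overlap, and the siJAG1-labelled pair was the dimmer. In relative expression the means were 0.518 and 0.298, a 1.74-fold lower reading and a log2 ratio of -0.80. Across the 4 combinations of single spots the fold ran from 1.61 to 1.87, so all 4 lay past 1.5-fold. Pairs that did not overlap are common on these slides, since 73.2% of the 507 antibodies had a lower siJAG1-labelled pair of this kind in relative expression.

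The call of Dkk-1 depended on how the arrays were scaled. With no scaling between arrays its log2 ratio was -0.72 and the call was kept. Its rank among the 507 readings was 21 on both arrays, so quantile normalization, which equalises readings of equal rank, gave a log2 ratio of 0. The median log2 ratio of all antibodies was -0.78, and the difference of Dkk-1 from it was -0.0208. That median is one of dim readings, since 468 of the 507 antibodies were below 0.2 on both arrays. The median signals, 34827 and 34391.5 units, lay near the blank means of 34188 and 34178. Whether bright readings share the shift of the dim ones was not tested. Division of each array by its median, which moves all log2 ratios by 0.77, left Dkk-1 at -0.0295. Without background subtraction its signals differed by a factor of 1.12, in a setting where 1 of the 507 antibodies passed the limit.

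sFRP-4, which binds Wnt ligands, had spots of 52516 and 51859 signal units on the siNC-labelled array. Its spots on the siJAG1-labelled array were 47387 and 48099. These pairs did not overlap either, with the siJAG1-labelled pair again the dimmer. The relative expression was 0.782 and 0.564, a fold of 1.39 that missed the limit. Over the 4 combinations of single spots the fold ran from 1.33 to 1.45, so none reached 1.5. Relative to the median of all antibodies, the log2 ratio of sFRP-4 was 0.30. Division by the array median turned its direction from -0.47 to 0.30. Both use a median of mostly dim antibodies as the reference for a bright one.

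**Figure D2:**
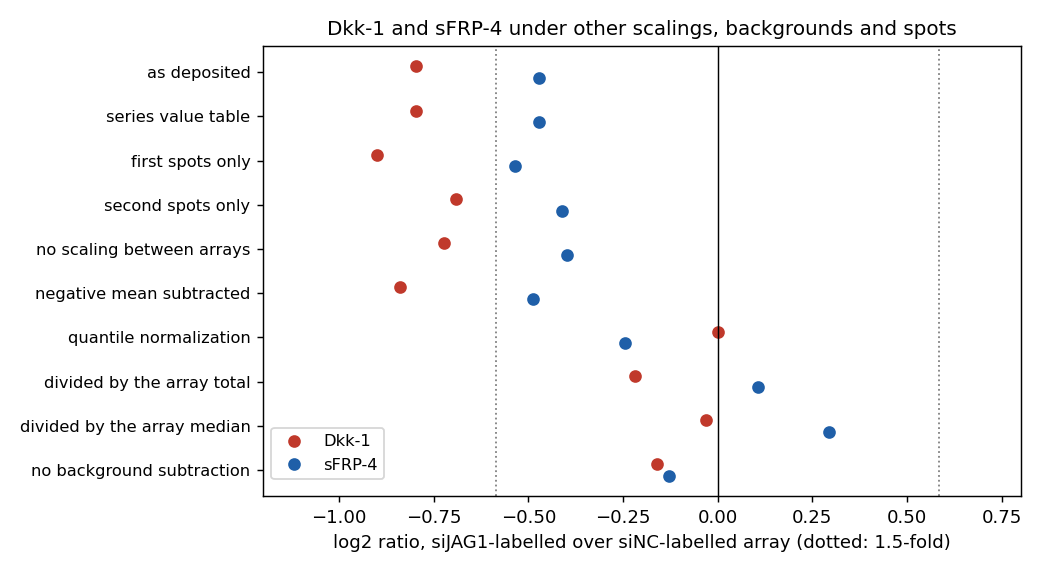
log2 ratio of the siJAG1-labelled over the siNC-labelled array (horizontal axis; dotted lines mark 1.5-fold) for Dkk-1 (red) and sFRP-4 (blue) under 10 ways to process the arrays (vertical axis). Dkk-1 ran from -0.90 with first spots to 0 after quantile normalization, and sFRP-4 from -0.53 with first spots to 0.30 with division by the array median.

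The negative controls of the slides bear on how bright these readings are. The value listed as the negative mean in the sheets, 34188 and 34178, equalled the mean of the 32 spots named Blank. The 16 spots named neg were brighter, with a mean of 43044 in the column equal to the siNC sheet and 46542 in that equal to the siJAG1 sheet. All of them lie in the corner blocks that also hold the bright positive controls. On the siNC-labelled array 3 of the 16 were brighter than Dkk-1, and on the siJAG1-labelled array 11 of the 16 were. For sFRP-4 the counts were 2 of 16 and 6 of 16. What these spots hold is not stated in the labels, and their part in the readings was not tested.

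Print position was checked for both bright antagonists. The 8 antibodies that touch Dkk-1 on the slide read 0.0545 to 0.0998 under the siNC label and 0.0184 to 0.0589 under the siJAG1 label, so Dkk-1 stood alone among them. Of the 8 around sFRP-4, thrombopoietin, a growth factor of platelet precursors, was the 1 above 0.2, at 0.454 and 0.258. Its spot nearer to sFRP-4 was the brighter on both arrays, at 46262 against 42560 units and at 40828 against 39366. Over the 6 neighbours in other rows, the nearer spot was the brighter in 3 of 6 under either label. Around Dkk-1 it was the brighter in 6 of 6 under the siNC label and 5 of 6 under the siJAG1 label. The other 7 neighbours of sFRP-4 stayed at or below 0.122 and 0.0869. Whether signal passes between neighbouring spots was not tested.

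The 4 dim antagonists were Dkk-3, Dkk-4, sFRP-1 and sFRP-3. Dkk-4, an inhibitor of the Dkk-1 type, read 0.0525 under the siNC label and 0.0330 under the siJAG1 label. sFRP-1, the family member often silenced in tumours, read 0.0722 and 0.0376. sFRP-3, known for a role in cartilage, read 0.0906 and 0.0490. All 4 read lower on the siJAG1-labelled array, as did 80.9% of the 507 antibodies. None of the 4 was called, because none reached 0.2. Without that limit all 4 would pass 1.5-fold and, with Dkk-1, 5 of the 6 would be called lower, where 58.4% of all antibodies would be.

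Dkk-3 had the lowest log2 ratio of the 6, at -1.89, and its spots show what that value rests on. They read 35171 and 35305 units on the siNC-labelled array. Under the siJAG1 label they read 34403 and 33804, a pair difference larger than or equal to that of 92.9% of the antibodies in that column. From single spots the log2 ratio ran from -3.47 to -1.11. The mean of the siJAG1-labelled pair, 34104, stood at -0.591 blank standard deviations from the blank mean. The ratio of Dkk-3 is therefore taken between a dim reading and one at the level of empty spots.

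Against the blanks, more of the dim antagonists were above background under the siNC label than under the siJAG1 label. The same held over all antibodies. With a limit of the blank mean plus 3 standard deviations, both spots of 6 of the 6 antibodies passed on the siNC-labelled array, where 59.4% of the 507 antibodies did. On the siJAG1-labelled array 3 of the 6 passed, Dkk-1, sFRP-3 and sFRP-4, against 30.8% of all antibodies. In Panc1_mir-124 it was 4 of the 6 against 23.9% of all antibodies. The limits for the labelled arrays were 34626 and 34556 units. The blanks were printed in columns 1 to 4 of the slide, away from all 6 antagonists in columns 14 to 25.

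Dim log2 ratios also moved with the print column, so each dim antagonist was set beside antibodies of its own and the adjoining print columns. Among antibodies below 0.2 on both arrays in print columns 14 to 16, the 46 others beside Dkk-3 had a median log2 ratio of -0.78, and 1 of them was lower than Dkk-3. The 48 beside Dkk-4 had a median of -0.80, close to its own -0.67. The 45 beside sFRP-1 had a median of -0.58 against its -0.94, and 13 were lower than it. The 45 beside sFRP-3 had a median of -0.38 against its -0.89, and 8 were lower. Dkk-4 and sFRP-1 thus lay well within the local range, and Dkk-3 near its lower end. sFRP-3 lay in the lower part of its range, below the lower quartile of -0.76 for dim antibodies in print column 24.

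**Figure D3:**
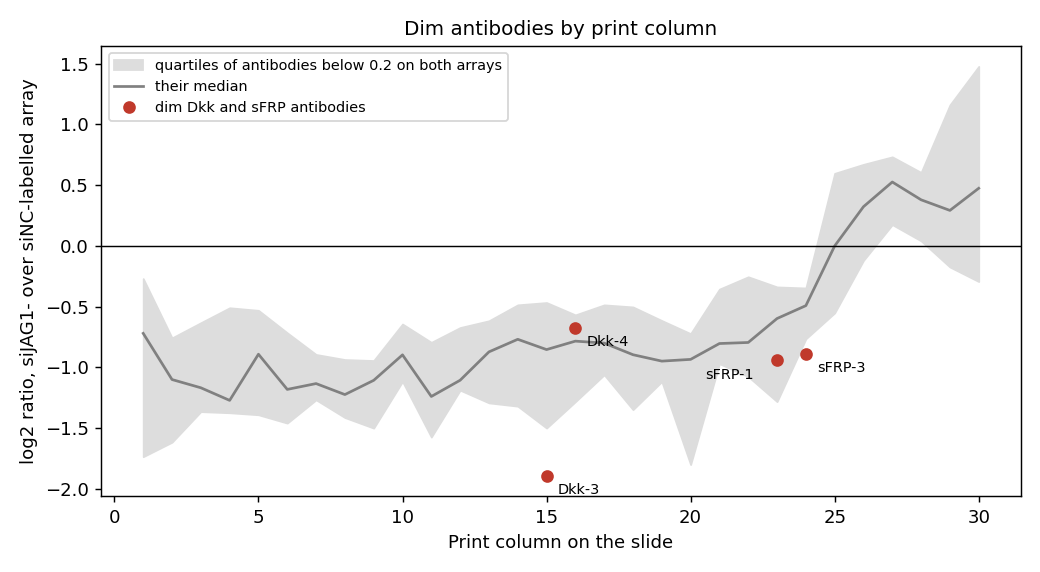
log2 ratio of the siJAG1-labelled over the siNC-labelled array (vertical axis) for antibodies below 0.2 on both arrays, by print column on the slide (horizontal axis). The grey line is the median and the band spans the quartiles of a column; the points are Dkk-3 at -1.89, Dkk-4 at -0.67, sFRP-1 at -0.94 and sFRP-3 at -0.89.

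Over all 6 antagonists the median log2 ratio was -0.84, with a range from -1.89 to -0.47, beside -0.78 over all 507 antibodies.

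**Figure D4:**
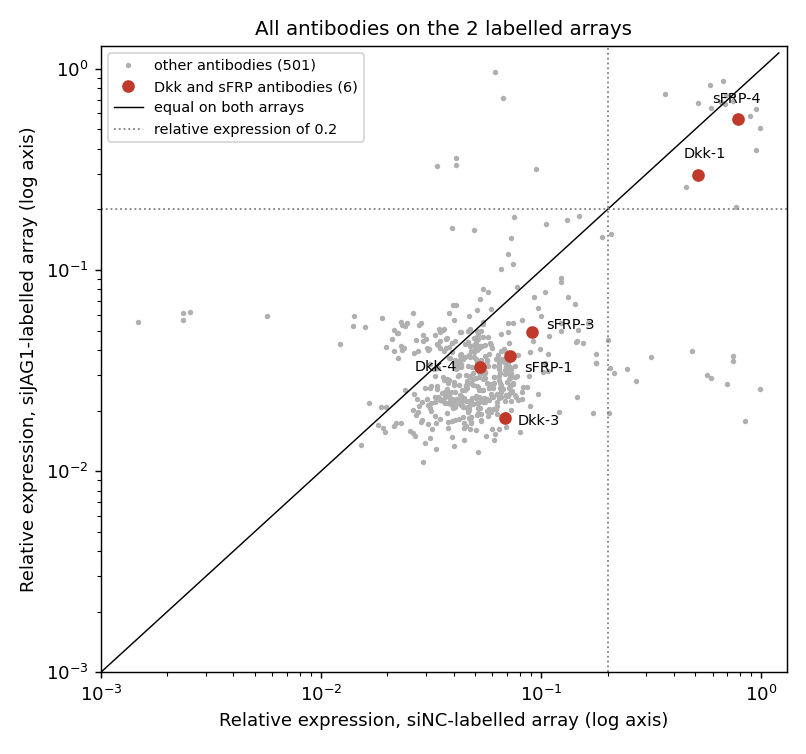
Relative expression of all 507 antibodies on the siNC-labelled (horizontal, log axis) and the siJAG1-labelled array (vertical, log axis), with the 6 antagonists in red, a line of equal readings and dotted lines at 0.2. Dkk-1 and sFRP-4 lie above 0.2 on both arrays and below the line of equality; the other 4 lie among the dim antibodies.

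The columns headed mir-124 hold readings of the same 6 antibodies that belong to no sample of the study, and they are described by heading only. In Panc1_mir-124 the spots of Dkk-1 were 53488 and 53513 units, a relative expression of 0.797. Of all antibodies 5.13% reached 0.2 in that column, and of the 6 again only Dkk-1 and sFRP-4 did. Against the 0.518 of Panc1_NC this was 1.54-fold higher, just past the limit, where 0.789% of all antibodies were called higher and 0.986% lower. The call was lost with first spots alone, at a log2 ratio of 0.555 in place of 0.62, and with signals as deposited, at 0.22. In BX3mir-124 the spots of Dkk-1 were 31932 and 31654 units, a relative expression of 0.0780, against 0.298 in BX3_NC. With the limit of 0.2 in place of the dim reading, that is at least 1.49-fold lower and short of a call, which second spots alone did reach, at a log2 ratio of -0.61. Dkk-1 thus ranked, from high to low, Panc1_mir-124, Panc1_NC, BX3_NC and BX3mir-124, and no neighbouring pairs of spots in that order overlapped. Of all antibodies, 25.4% had a Panc1_mir-124 pair wholly above that of Panc1_NC, and 36.9% a BX3mir-124 pair wholly below that of BX3_NC.

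sFRP-4 gave another order. Its spots in Panc1_mir-124 were 53125 and 52066 units, which overlapped with the pair in Panc1_NC, and the relative expression was 0.761 against 0.782. The first of these columns was the lower in relative expression and the higher in mean signal, at 52596 against 52188 units, so their order is not settled. In BX3mir-124 the spots of sFRP-4 were 30828 and 30422 units, below the blank mean of that column, 31271. Its relative expression of 0.0373 there, against 0.564 in BX3_NC, is at least 2.82-fold lower with the limit of 0.2 and was called. In that comparison 1.97% of all antibodies were called lower and 0.197% higher.

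BX3mir-124 differed from the other columns in its background. Its blank mean was 31271 units, against 34178 to 34302 in the other 3, and its median antibody signal of 30725 lay below its own blanks. Its lowest antibody spot was 29552 units, and its positive control mean of 58299 was close to the 57374 to 58664 of the others. In this column 0 of the 6 antagonists had both spots above the blank limit, whereas 3.55% of all antibodies did. Of all antibodies 3.16% reached 0.2 there. What part this background has in the low readings of Dkk-1 and sFRP-4 was not tested.

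The readings of the dim antagonists, several at the level of the blanks, did not follow those of the bright ones across columns in every case. Dkk-3, printed directly beside Dkk-1, read 0.0296 in Panc1_mir-124, where Dkk-1 was highest, and 0.0682 in Panc1_NC. Dkk-4 read 0.0304 and 0.0525 in the same columns. In Panc1_mir-124 neither Dkk-3 nor Dkk-4 had a spot above the blank limit. They stood at -0.229 and -0.0956 blank standard deviations from the blank mean. The median of all antibodies was 0.0371 there and 0.0509 in Panc1_NC. sFRP-3, printed directly beside sFRP-4, read 0.0362 in BX3mir-124, 0.0490 in BX3_NC, 0.0788 in Panc1_mir-124 and 0.0906 in Panc1_NC. In BX3mir-124 all 4 dim antagonists, like sFRP-4, read below the blank mean of the column. sFRP-1 read between 0.0376 and 0.0722 over the 4 columns.

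The antibodies most like the bright antagonists were found by the smallest value of the largest log2 signal difference over the 4 columns. For Dkk-1 these were thrombopoietin at 0.18, latent TGF-beta binding protein 1 at 0.25 and the monocyte attractant MCP-1, also at 0.25. For sFRP-4 they were the matrix glycoprotein thrombospondin-1 at 0.096, the protease uPA at 0.13 and thrombopoietin at 0.25. Like Dkk-1 and sFRP-4, all 5 of these read below 0.2 in BX3mir-124 and at least 0.454 in both Panc1 columns. They were picked on signals in these same columns, so this likeness follows from the choice. Over all antibodies, 3.16% reached 0.2 in BX3mir-124, 5.13% in Panc1_mir-124 and 6.51% in Panc1_NC. In BX3_NC, where Dkk-1 read 0.298, latent TGF-beta binding protein 1 and MCP-1 read 0.0395 and 0.0353, so these 2 differ from Dkk-1 there. The measure uses raw signals, which carry a large common background, and so it says little about such differences. Only 4 columns stand behind this measure, and the antibodies of a column share its slide and its baseline.

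Of 13 further antibodies to the Wnt pathway, 1 reached 0.2 and 0 were called in either direction, which is near the shares of all antibodies (6.51% and 4.54% at 0.2, 2.96% called lower and 1.38% higher). That one was glypican 3, a cell surface proteoglycan that can bind Wnt ligands, at 0.692 under the siNC label and 0.743 under the siJAG1 label. In the mir-124 columns it read 0.706 for Panc1 and 0.412 for BX3, so it was above 0.2 in all 4 columns, unlike Dkk-1 and sFRP-4. The partners of Dkk-1 are named here for their role. LRP-6 read 0.0814 and 0.0566 on the labelled arrays, Kremen-1 read 0.0300 and 0.0456, and Kremen-2 read 0.0363 and 0.0395. WIF-1, a secreted Wnt antagonist outside the Dkk and sFRP families, read 0.0331 and 0.0476. The 12 dim antibodies, which also include 6 Frizzled receptors, beta-catenin, WIF-1 and WISP-1, peaked at 0.0814 and 0.0614. Their median log2 ratio was -1.08, with 8 lower and 4 higher on the siJAG1-labelled array. Over all 507 antibodies the median was -0.78 and 80.9% were lower. The 4 higher ones, Kremen-1, Kremen-2, WIF-1 and WISP-1, lie in print columns 24 to 28. Column medians of dim antibodies ran from -0.49 to 0.53 there. The 8 lower ones lie in print columns 7 and 13 to 18, with column medians from -1.13 to -0.77. The part of print position in this split was not tested.

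Secreted antagonists of another pathway were counted beside the same shares of all antibodies. Of 8 antibodies to inhibitors of BMP and activin or to proteins named after them, gremlin reached 0.2 on the siNC-labelled array alone, at 0.201 against 0.0447. With the dim reading raised to 0.2 it was no call, and 0 of the 8 were called. Their median log2 ratio was -0.95, beside -0.78 over all antibodies, and 7 of the 8 were lower on the siJAG1-labelled array. The match by name left out the antibody printed as CV-2 / Crossveinless-2, another name of the BMP inhibitor BMPER. That antibody was dim, at 0.0158 and 0.0521, and went the other way, with a log2 ratio of 1.72. It lies in print column 30, where dim antibodies had a median of 0.47. With so few antibodies, the median of the list depends on which names are matched.

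Markers of the cells the medium could come from were few. Of 8 markers of pancreatic carcinoma epithelium, 1 was on the array, lipocalin-2, an iron-siderophore binding protein. It read 0.0620 under the siNC label and 0.965 under the siJAG1 label. By heading it read 0.897 in BX3mir-124 and 0.965 in BX3_NC, against 0.0403 in Panc1_mir-124 and 0.0620 in Panc1_NC, so it went with the first part of the headings. The labelled cell line was thus checked by 1 marker, and that marker differed between the 2 labelled arrays. Of 6 fibroblast markers 2 were present and of 7 white blood cell markers 5 were, and these 7 peaked at 0.146. On the siNC- and siJAG1-labelled arrays their median readings were 0.112 and 0.0401 for fibroblasts and 0.0718 and 0.0328 for white blood cells. Over all antibodies the medians were 0.0509 and 0.0299. All 7 read lower on the siJAG1-labelled array, as did 80.9% of all antibodies. Of the serum list, 3 thrombospondins were present, with thrombospondin-1 at 0.740 and 0.694. Thrombospondin-2, at 0.0776 and 0.0822, and thrombospondin-4, at 0.0526 and 0.0718, stayed below 0.2. Their part in the readings of the antagonists was not tested.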

How the data were processed

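Medium of 2 cultures was read on RayBiotech L-507 antibody arrays, per the labels. Per the file headers, the authors deposited, per antibody, 1 signal intensity and 1 relative expression, and single raw intensities for 2 spots each. The relative expression is a ratio, and the series value table holds the same deposited ratio, rounded. For scanner, software and background steps, nothing is given in the sources used. The calculation of the ratio was worked out from the values (tolerance 1e-06). The design text spells the cell line differently from the titles, whose spelling is used.

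Antibodies were matched by name, and gene names came from RefSeq (GRCh38.p14). The 6 antibodies and the lists were chosen with earlier results of these data known. Every Dkk and sFRP antibody is named; of the other lists, those of at least 0.2 are named, and the 3 antibodies most like each bright antagonist. Values under 0.2 stand at 0.2 in every call and in folds written as "at least". No test was run, since there is 1 array per group and the 2 spots are technical duplicates. The 2 copies of the single-spot sheet were identical, and the 4 columns of the second were not used. Python 3.11.15, pandas 2.3.3 and NumPy 2.4.6 were used. Other scalings, backgrounds, limits and single spots were tried as alternatives.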

Additional observations from a re-analysis of the deposited data

Results flagged for a closer look

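Dkk-1 moved in opposite directions under the same change of heading. Its log2 ratio was 0.62 for Panc1_mir-124 over Panc1_NC and, with the dim reading at 0.2, -0.58 for BX3mir-124 over BX3_NC. Only the first passed the limit of 1.5-fold. With first spots alone it did not, at 0.555, and with second spots alone the other did, at -0.61. In BX3mir-124 neither spot of Dkk-1 passed the blank limit, and the blank mean was 31271 units against 34178 in BX3_NC. Of all antibodies, 25.4% had a Panc1_mir-124 pair wholly above that of Panc1_NC. A BX3mir-124 pair wholly below that of BX3_NC was found for 36.9%. There is 1 column on each side, and the difference was not tested. These columns match no label of the study.

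The spots named neg enter no ratio and no call, and were only counted beside Dkk-1 and sFRP-4. They had a mean of 43044 units in Panc1_NC and 46542 in BX3_NC, above the blank means of 34188 and 34178. Single neg spots ran from 35068 to 56592 units in Panc1_NC and from 36710 to 57830 in BX3_NC.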

How the results depend on the processing

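No paired analysis was possible because there is 1 array per group. The 1 call among the 6 antibodies, Dkk-1, became 0 calls with division by the array median, division by the array total, quantile normalization, no background subtraction, a 2-fold limit, and a limit of 1.5 times the negative mean; without a floor there were 5 calls, all lower. The log2 ratio of Dkk-1 was -0.80 as reported (also under the 2-fold and the 1.5 times limits), -0.0295 when divided by the median, -0.22 when divided by the total, 0 after quantile normalization and -0.16 without background subtraction. In the same order, the median of the 6 was -0.84 as reported and -0.0744, -0.26, -0.25 and -0.0420, and it was -1.29 with the negative mean subtracted. The direction of sFRP-4 changed to 0.30 under the median and 0.11 under the total, and that of the dim Dkk-4 to 0.0950 under the median and 0.0267 under quantile normalization. Between headings, Dkk-1 in Panc1_mir-124 over Panc1_NC was 0.555 from first spots and 0.22 from signals as deposited, both below the limit. In BX3mir-124 over BX3_NC it was -0.61 from second spots, a call, and sFRP-4 in Panc1_mir-124 over Panc1_NC was 0.0112 from signals. Dkk-3, sFRP-1 and sFRP-3 stayed below 0 in every setting that gave a value; Dkk-3 gave none with the negative mean subtracted. The use of first or second spots alone for the labelled arrays was chosen after seeing the data. Except where a setting moves values by its own construction, the cause was not tested. Over all 507 antibodies the split of 7 higher and 15 lower became 20 and 8 under the median, 13 and 10 under the total and 11 and 11 under quantile normalization. Without background subtraction it was 1 and 0, so that setting leaves almost no room for a call.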
